A study of Mus musculus with 22 samples.

Results

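Trimethylation of histone H3 at lysine 4 (H3K4me3) marks the starts of genes that carry initiating RNA polymerase II. Trimethylation of lysine 36 on the same histone (H3K36me3) is laid down by the SETD2 enzyme, which travels with the elongating polymerase, and it therefore lies over the bodies of transcribed genes. A start with H3K4me3 usually has H3K36me3 a short way downstream. The regions described here were chosen by the absence of that second mark: they are the H3K4me3 regions of differentiated MC3T3-E1 cells on chromosomes 1 to 19 and X that had no H3K36me3 region of the same cells within 5 kb of either end. There were 1482 of them among 8994 H3K4me3 regions (16.5%). They are called H3K36me3-distant regions below, and the other 7512 are called H3K36me3-near regions.

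MC3T3-E1 is a mouse line of osteoblast precursors that forms mineralised matrix in osteogenic medium, used here at passages 5 to 12. Chromatin immunoprecipitation with sequencing had been made from cultures differentiated for 15 days and from undifferentiated cultures, both exposed for 3 h to 100 nM of calcitriol (1,25-dihydroxyvitamin D3). The vitamin D receptor (VDR) and its partner the retinoid X receptor (RXR) also had lists from ethanol vehicle in each state. For RUNX2, C/EBPβ and the 5 histone marks only calcitriol lists were used, and vehicle lists of these antibodies were not analysed here, so all mark values are from hormone-treated cells. The differentiated cultures were also homogenised and spun through sucrose, so state and preparation cannot be told apart. The acetylated residue named H4K5 in the sample labels appears as H3K5 in the protocol text, and the sample labels were followed. Each of the 22 lists combines the authors' replicates, and no list of a single culture was used, so variation among cultures is unknown here. The tests below therefore compare lists by counting regions, which are not replicates of a condition.

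Among the genes that mark osteoblasts, 9 of 16 had H3K4me3 at a start in differentiated cells (among them Postn, Spp1, Col1a2, Dlx5, Sparc, Col1a1, Sp7 and Runx2), and all 9 starts were H3K36me3-near (0 of 9 distant, exact 95% interval 0 to 33.6%, against 14.3% distant over all protein-coding genes with H3K4me3). Bglap, Bglap2, Alpl, Dmp1, Ibsp, Msx2 and Phex had no H3K4me3 region listed within 1 kb of a start. Of markers of other cell types, Cebpa among 6 adipocyte genes and Sox9 among 6 chondrocyte genes had H3K4me3, and 0 of 6 muscle, 0 of 5 blood and 0 of 5 neuron markers did.

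The starts below are 80 bases before and 20 bases after the annotated start of 6 genes with a H3K36me3-distant region (read on the gene's strand from build NCBIM37, which is mm9). They are shown because they hold the kinds of start found in the set. Capitals mark GGGCGG (the GC box bound by SP factors), CCAAT (the CCAAT box bound by NF-Y) or their reverse complements, and TATAAA (the TATA box).
Vdr, chr15:97738721-97738821, minus strand: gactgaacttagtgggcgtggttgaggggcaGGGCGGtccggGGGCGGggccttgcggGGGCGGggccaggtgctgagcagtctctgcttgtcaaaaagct
Rxra, chr2:27532702-27532802, plus strand: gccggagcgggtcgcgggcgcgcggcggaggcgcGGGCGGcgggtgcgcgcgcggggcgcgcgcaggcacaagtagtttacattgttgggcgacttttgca
Bmpr1a, chr14:35315694-35315794, minus strand: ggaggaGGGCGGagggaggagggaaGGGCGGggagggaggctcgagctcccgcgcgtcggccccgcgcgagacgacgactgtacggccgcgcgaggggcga
Acvr2a, chr2:48669549-48669649, plus strand: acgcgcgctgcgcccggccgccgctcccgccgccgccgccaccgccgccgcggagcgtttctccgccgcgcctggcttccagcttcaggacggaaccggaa
Id1, chr2:152561907-152562007, plus strand: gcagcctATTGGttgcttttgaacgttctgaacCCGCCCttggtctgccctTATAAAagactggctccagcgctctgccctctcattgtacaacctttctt
Hist2h2ab, chr3:96023759-96023859, plus strand: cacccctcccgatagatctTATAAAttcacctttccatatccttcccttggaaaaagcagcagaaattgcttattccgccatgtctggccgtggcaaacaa

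The first 4 of these starts have no TATAAA and hold 6 (Vdr), 20 (Rxra), 17 (Bmpr1a) and 21 (Acvr2a) CpG dinucleotides. Vdr has 3 GC boxes, Bmpr1a has 2, Rxra has 1 and Acvr2a has none in this window. Id1 and Hist2h2ab, both short genes, hold TATAAA and 3 CpG dinucleotides each. The annotated start of Hist2h2ab falls on an ATG in the printed bases and may be that of the coding sequence. TATAAA lies farther upstream of it than the window in which TATA boxes were counted below, so it was not counted there. The median GC content of the central 1000 bp was 60.4% in the H3K36me3-distant regions and 57.8% in the H3K36me3-near regions, and the median ratio of observed to expected CpG was 0.744 and 0.704. GC above 50% together with a CpG ratio above 0.6 was found in 73.2% of the distant and 66.0% of the near regions.

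Motifs were counted on both strands within 250 bp to either side of the start, except the TATA box, which was read on the gene's strand from 45 to 16 bases before it. For distant and near regions this was the annotated transcript start nearest the region's centre. For all genes it was the outermost annotated start of the gene, so the shares over all genes are not a like comparison. A GC box stood at 85.7% of 1305 distant protein-coding starts (95% interval 83.7 to 87.6), at 80.7% of 7257 near starts and at 52.6% of the starts of all 22350 protein-coding genes. The ETS motif CCGGAAG, the core recognised by ETS-family factors, stood at 16.02% of distant starts (14.1 to 18.1), 25.9% of near starts (24.9 to 26.9) and 14.4% of all genes. The CCAAT box stood at 36.9% of distant starts, 41.1% of near starts and 48.1% of all genes. A TATA box was read at 6 distant starts (0.460%), at 0.772% of near starts and at 2.53% of all genes. The RUNX motif TGTGGTT stood at 2.91% of distant starts, 4.73% of near starts and 7.61% of all genes. Of the motifs counted, ETS had the largest gap between distant and near starts, and the shares of the motifs TGACGTCA (3.07% and 3.73%), AAGATGGC (6.90% and 7.95%) and GCATGCGC (5.29% and 6.45%) had intervals that overlapped. A match of letters is a description of the sequence and was not tested as a binding site.

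Most H3K36me3-distant regions lay at gene starts. A protein-coding start lay within 1 kb of 1305 of them (88.1%, exact 95% interval 86.3 to 89.7), against 96.6% in the near group, and any annotated start within 1 kb of 1340 (90.4%). Another 35 lay at starts of other gene types alone, among them long noncoding RNAs, and 142 (9.58%) had no annotated start within 1 kb. In the near group 2.22% had no start. Of the 142, 21 (14.8%) touched a protein-coding gene, against 34.7% of the near regions without a start and 25.6% of all regions without one. Starts on both strands were found at 13.3% of the distant and 22.7% of the near regions.

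At most distant starts H3K36me3 lay farther into the gene. In 1094 of the distant regions (73.8%, interval 71.5 to 76.0) a gene starting there carried H3K36me3 somewhere within it, beyond the 5 kb, and in 211 (14.2%) no part of the gene did. In the near group these shares were 96.1% and 0.506%, and over all regions 92.4% and 2.77%, a difference that the rule partly fixes. The nearest H3K36me3 region lay at a median of 16457 bp, with quartiles of 8907.75 and 36278.8 bp. These distances follow from the rule and are a description. At the edge of the rule, the 3 closest distant regions belonged to 6330409N04Rik (5008 bp), Rap1a (5016 bp), a RAS-family GTPase, and Tjp1 (5024 bp), a tight-junction scaffold. The 3 regions just outside it belonged to Cecr5 (4992 bp), Taok3 (4990 bp) and Nenf (4988 bp). The closest 3 inside were 1934 to 2048 bp wide and the 3 outside 1254 to 1900 bp wide.

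The genes were long. The median length of the gene at a distant start was 66691 bp (quartiles 33126 and 127925), against 22255 bp at a near start (10151 and 48188), and the median number of exon blocks was 13 and 10. Of all protein-coding genes with H3K4me3 at a start, 1382 of 9643 (14.3%) had a distant region. That share was 7.50% (82 of 1093) for genes up to 5000 bp and 1.88% for those up to 10000 bp. It was 6.77%, 14.3% and 23.7% in the next 3 length classes, 37.2% between 100000 and 200000 bp and 42.6% (164 of 385) above that. The class up to 5000 bp holds Id1, Id2, Msx1, Zic2, Cebpa and several histone genes, all without H3K36me3 in the gene in differentiated cells. A gene that short lies wholly or almost wholly within 5 kb of a region at its start. For such genes the rule itself therefore nearly excludes H3K36me3 in the gene, while a long gene can carry it beyond the 5 kb. The shares by gene length are shaped by the rule and are a description.

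**Figure D1:**
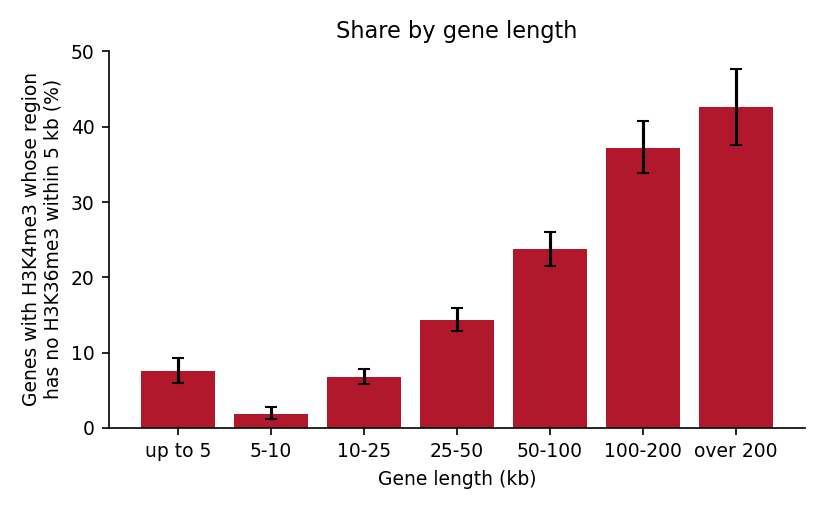
Share of protein-coding genes with H3K4me3 at a start whose H3K4me3 region had no H3K36me3 within 5 kb in differentiated cells (vertical axis, %), by gene length in kb (horizontal axis). Bars are shares and lines exact 95% intervals, which cover counting error only. The share is lowest (1.88%) between 5 and 10 kb and highest (42.6%) over 200 kb. The rule treats short and long genes differently, since only a long gene can carry H3K36me3 beyond 5 kb, so the shares are a description.

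Along genes over 100 kb, the share of starts under H3K36me3 at a given distance was read in both states. At 10000 bp past the start it was 9.29% for 452 distant starts and 79.7% for 728 near starts in differentiated cells. In undifferentiated cells, whose list the rule did not use, the share at that distance was 32.1% for distant and 86.0% for near starts. At 40000 bp the shares in undifferentiated cells were 43.4% for distant and 75% for near starts, and at 100000 bp 47.3% and 73.6%. The distant starts carried less H3K36me3 than the near starts along the first 100000 bp in undifferentiated cells too.

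**Figure D2:**
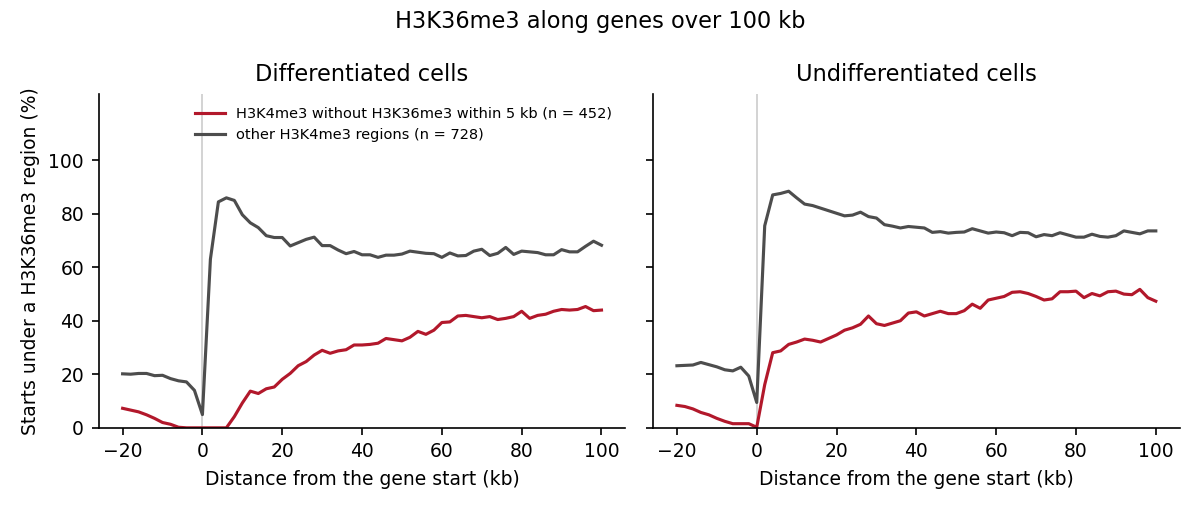
Share of starts under a H3K36me3 region (vertical axis, %) by distance from the start in the direction of transcription (horizontal axis, kb), for genes over 100 kb, in differentiated (left) and undifferentiated cells (right). Red lines are the 452 starts with a H3K36me3-distant region and grey lines the 728 with a H3K36me3-near region. The red line is at 0 around the start in differentiated cells because of the rule, and at 10000 bp it stands at 9.29% in differentiated and 32.1% in undifferentiated cells.

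In the undifferentiated lists the 1482 places fell into 4 groups of unequal size. H3K4me3 was present with H3K36me3 within 5 kb at 442 of them (29.8%), H3K4me3 without H3K36me3 at 427 (28.8%), H3K36me3 without H3K4me3 at 174 (11.7%), and neither at 439 (29.6%). This split was not made for the near regions. Of those, 81.1% had undifferentiated H3K4me3 and 98.5% had undifferentiated H3K36me3 within 5 kb. The 439 with neither were narrow, with a median width of 1510 bp against 2425.5 bp for the 442 with both, and 112 of them (25.5%) were starts of genes with no H3K36me3 in differentiated cells, against 28 (6.33%). H3K9ac was nonetheless listed in undifferentiated cells at 433 of the 439 and at all 442, against 99.9% of all H3K4me3 regions.

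Undifferentiated H3K4me3 overlapped 58.6% of the distant regions (869, exact 95% interval 56.1 to 61.2) and 81.1% of the near regions, and 77.4% of all 8994. The odds ratio was 0.330 (95% interval 0.293 to 0.371, Fisher's exact test, two-sided, Benjamini-Hochberg adjusted p = 1.29e-70 over the 20 lists that the rule did not use). Undifferentiated H3K36me3 overlapped 16.3% of the distant regions (242) and 75.2% of the near regions, and 65.5% of all. Its odds ratio was 0.0643 (0.0555 to 0.0745), the lowest of the 20, and its Fisher's exact p was too small for double precision. Distant and near regions were split by the same mark in differentiated cells, so the rule partly fixes this contrast. The share was 96.1% in regions that overlap differentiated H3K36me3 and 42.0% up to 1 kb away. It was 17.4% between 1 and 5 kb and 21.4% between 5 and 10 kb. Against the 2491 near regions that did not touch H3K36me3, chosen after the data had been seen, the shares were 16.3% and 33.1% (odds ratio 0.395). With the 5 kb margin of the rule, undifferentiated H3K36me3 was found at 41.6% of the distant and 98.5% of the near places. Applied to the undifferentiated lists, the same rule gave 463 of 6983 H3K4me3 regions (6.63%), of which 353 (76.2%) overlapped a distant region of differentiated cells. In the other direction, 355 of the 1482 (24.0%) overlapped one of those 463. The H3K4me3 regions of undifferentiated cells were wider (median 5256 bp against 2225 bp), and their H3K36me3 list covered more (368.7 Mb against 323.3 Mb). Both make an H3K36me3 region within 5 kb easier to meet, so the shares of 6.63% and 16.5% are not a like comparison.

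The overlap with undifferentiated H3K4me3 did not step at 5 kb. It was 89.0% in the 5021 H3K4me3 regions that overlapped H3K36me3 in differentiated cells, 68.2% in 1589 regions up to 1 kb away, 60.0% in 902 regions between 1 and 5 kb and 64.6% in 444 regions between 5 and 10 kb. It was 61.3% between 10 and 25 kb, 62.1% between 25 and 50 kb, 49.7% between 50 and 100 kb and 33.3% in the 138 regions farther away. Set against only the 2491 near regions that did not touch H3K36me3, a comparison added after the data had been seen, the share was 58.6% against 65.2% (odds ratio 0.757, 0.663 to 0.864, Fisher's exact test, adjusted p = 0.000115).

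The first base under H3K36me3 within the gene differed between the states. At distant starts it lay at a median of 16846.5 bp in differentiated cells (1082 starts) and 7133 bp in undifferentiated cells (1148 starts). At near starts the medians were 1093 and 837 bp. Among the 1057 distant starts with H3K36me3 in the gene in both states, it lay farther from the start in differentiated cells at 857 (81.1%), and at near starts in 66.1% of 7130. The rule admits only starts with a long distance in differentiated cells, so the direction at distant starts is partly fixed by the choice and is a description. The H3K36me3 list of differentiated cells covered 323.3 Mb and that of undifferentiated cells 368.7 Mb.

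Individual genes differed by very different amounts. Bmpr1a, a type I receptor for bone morphogenetic proteins, had its first H3K36me3 at 41515 bp in differentiated and 905 bp in undifferentiated cells, and H3K36me3 covered 54.3% and 79.4% of the gene. Acvr2a, a type II receptor of the same ligand family, had 55333 and 6586 bp. Rxra, which encodes RXRα, had nearly the same distance in both states, 28795 bp in differentiated and 28644 bp in undifferentiated cells. Vdr had 16730 and 1081 bp, with 65.2% and 93.9% of the gene covered, at a H3K4me3 region of 2649 bp (chr15:97736616-97739264). In 4 of the 22 genes plotted the difference ran the other way, the largest being Zfp710 with 11501 bp in differentiated and 54657 bp in undifferentiated cells.

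**Figure D3:**
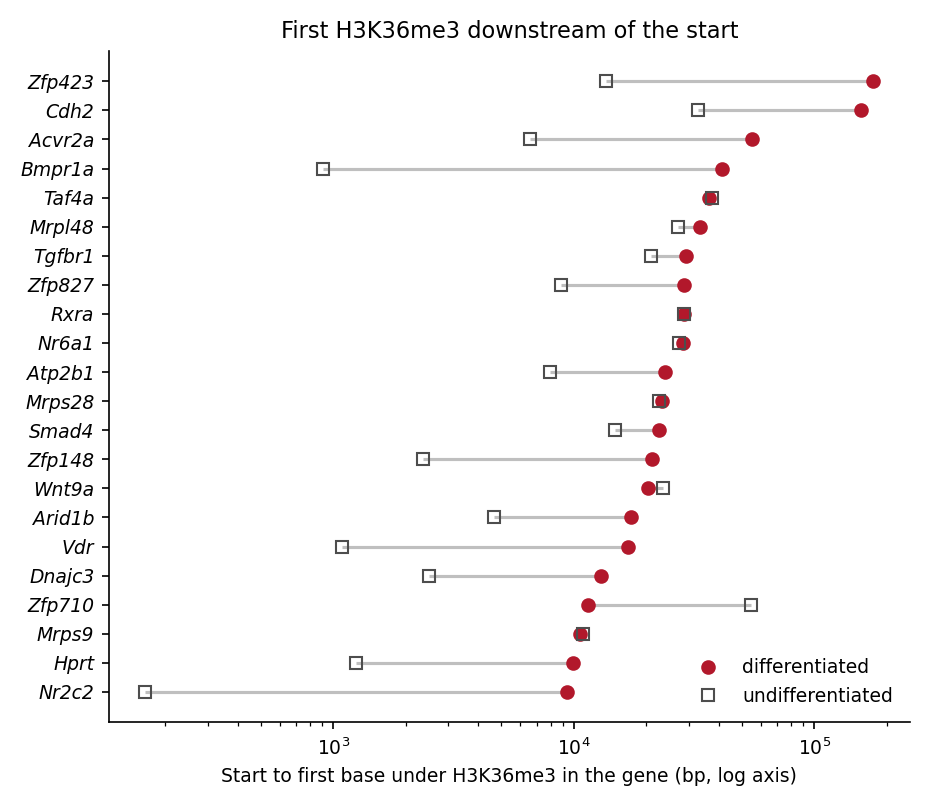
Distance from the start to the first base under H3K36me3 within the gene (horizontal axis, bp, log scale) for 22 named genes with a H3K36me3-distant region and H3K36me3 in the gene in both states, ordered by the differentiated value. Filled circles are differentiated and open squares undifferentiated cells. Bmpr1a (41515 and 905 bp) and Vdr (16730 and 1081 bp) are far apart, and Rxra (28795 and 28644 bp) is not.

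The gene lists are given as counts against the 14.3% of all protein-coding genes with H3K4me3, with no test. Replication-dependent histone genes, short intronless genes whose transcripts end in a stem-loop instead of a poly(A) tail, were distant in 11 of the 16 that had H3K4me3 (68.8%, exact 95% interval 41.3 to 89.0). None of the 11 carried H3K36me3 in the gene, which the rule nearly fixes for genes this short. They shared 6 regions, since neighbours such as Hist2h2ab, Hist2h2ac and Hist2h2be lie under 1 H3K4me3 region (chr3:96022627-96025607). All 6 places had H3K9ac in both states and none had H3K4me3 listed in undifferentiated cells. These genes are nearly identical copies, so reads of 1 may have been placed at another.

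Among the lists with at least 5 such genes, nuclear receptors came next by share, at 9 of 25 genes. The vitamin D and Hox lists followed, at 2 of 6 each, and then the BMP and TGF-β list. The intervals of the vitamin D and Hox lists (4.33 to 77.7% each) and of the BMP and TGF-β list include the share over all genes. In the BMP and TGF-β list 7 of 22 genes with H3K4me3 were distant (31.8%, interval 13.9 to 54.9): the receptors Acvr2a, Bmpr1a, Tgfbr1 and Tgfbr3, the signal transducers Smad2 and Smad4, and the BMP antagonist Grem1. All 7 carried H3K36me3 farther into the gene. Tgfbr1 began at 29422 bp in differentiated and 20885 bp in undifferentiated cells, and Smad4 at 22629 and 14872 bp. Of 25 nuclear receptor genes with H3K4me3, 9 were distant (36%, 17.97 to 57.5), namely Esr1, Nr1d2, Nr2c2, Nr4a3, Nr6a1, Rora, Rxra, Thrb and Vdr. Esr1, Thrb and Nr4a3 had no H3K36me3 in the gene in differentiated cells. Nr2c2 began at 9388 bp in differentiated and 165 bp in undifferentiated cells, and Nr6a1 at 28519 and 27440 bp. Of 6 vitamin D response genes with H3K4me3, Vdr and Rxra were distant.

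Immediate early genes and developmental transcription factors were distant about as often as the 14.3% of all genes. Among immediate early genes 5 of 36 were (13.9%, interval 4.67 to 29.5): Id1, Id2 and Id4, which are inhibitors of helix-loop-helix factors and targets of BMP signalling, Maff and Nr4a3. Id1 (1160 bp long) and Id2 (2292 bp) had no H3K36me3 in differentiated cells, while in undifferentiated cells it covered 64.3% and 59.2% of the gene. Both genes lie within 5 kb of their regions, so the lack in differentiated cells follows from the rule. Id4 had no H3K36me3 in either state. Of 50 developmental transcription factors with H3K4me3, 8 were distant (16%, interval 7.17 to 29.1), namely Dlx6, Gata6, Lhx6, Msx1, Sim2, Sox5, Tbx15 and Zic2, and all but Tbx15 had no H3K36me3 in the gene. Msx1 and Dlx6, homeobox genes of skeletal development, and Zic2 carried H3K36me3 over 34.8%, 79.6% and 89.4% of the gene in undifferentiated cells and over none of it in differentiated cells. These genes lie within 5 kb of their regions, so the lack of H3K36me3 in differentiated cells follows from the rule. The Hox genes Hoxb6 and Hoxc6 (2 of 6), and the Notch genes Hes7, Dll1 and Notch4 (3 of 14 in the Notch and Hedgehog list), had none in the gene either. Wnt9a was the only distant gene among 15 Wnt ligands and receptors with H3K4me3.

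Genes of the basic cell machinery were rarely distant, in counts not matched for gene length. None of 78 cytosolic ribosomal protein genes with H3K4me3 (upper 95% limit 4.62%), none of 37 proteasome genes (9.49%) and 3 of 72 mitochondrial ribosomal protein genes (4.17%) were. These 3 were Mrpl48, Mrps9 and Mrps28, whose genes are 62547, 54450 and 121773 bp long. Hprt was the only one of 29 housekeeping genes, with H3K36me3 from 9940 bp in differentiated and 1245 bp in undifferentiated cells. Dnajc3 and Hspa1b were 2 of 20 heat shock and chaperone genes. Zfp zinc finger genes were distant in 38 of 223 (17.04%, interval 12.3 to 22.6), near the share over all genes, and Zfp710, Zfp827, Zfp148 and Zfp423 had the widest regions. No olfactory receptor gene had H3K4me3, and 1 of 24 clustered protocadherins did, at a near region.

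**Figure D4:**
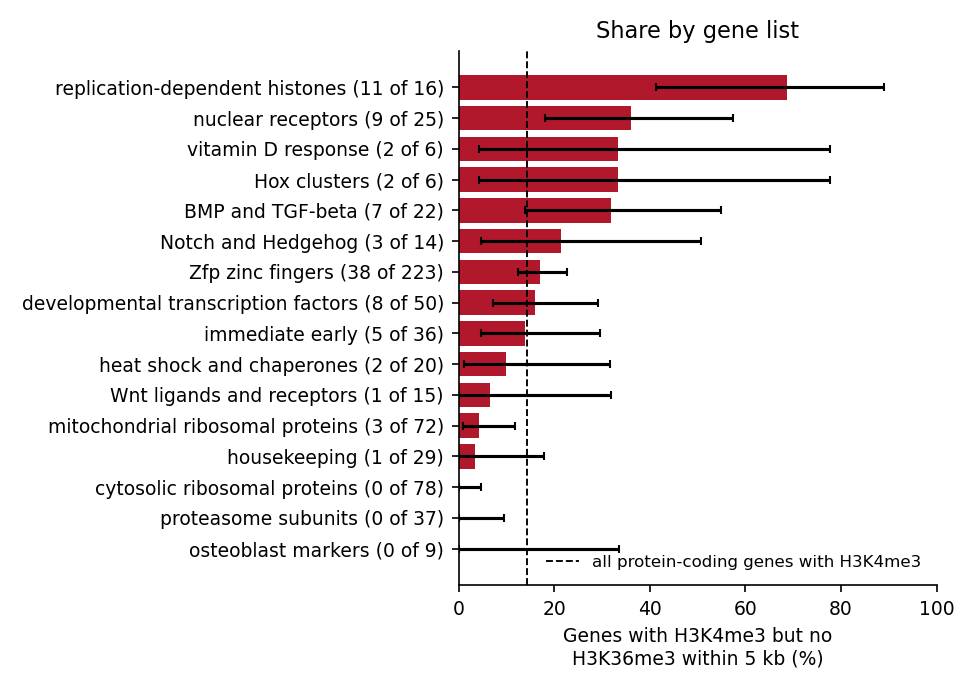
Share of the genes with H3K4me3 in differentiated cells whose region had no H3K36me3 within 5 kb (horizontal axis, %), for the 16 gene lists with at least 5 such genes. Bars are shares, lines exact 95% intervals and the dashed line the 14.3% over all protein-coding genes with H3K4me3. Replication-dependent histones stand highest (11 of 16), and cytosolic ribosomal proteins (0 of 78) and proteasome subunits (0 of 37) are at 0.

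Some distant regions had no H3K4me3 in undifferentiated cells. Of the widest of these at genes, Cdh2, which encodes N-cadherin, had a region of 3909 bp, with H3K36me3 from 156975 bp in differentiated and 32766 bp in undifferentiated cells. Plxdc2, a plexin-domain membrane protein, had a region of 3525 bp, with H3K36me3 over 3.00% of the gene in differentiated cells and over none in undifferentiated cells. Bhlhe41, a circadian repressor, had a region of 4681 bp and no H3K36me3 in the gene in either state. Hoxb6, Atp2b1, a plasma membrane calcium pump, and Taf4a, a subunit of TFIID, were also among the widest of this kind. Col11a1, a fibrillar collagen chain of cartilage, was distant too. Its region of 3081 bp (chr3:113732777-113735857) had H3K36me3 from 25349 bp over 47.3% of the gene in differentiated cells, and of the marks only H4K5ac was listed there in undifferentiated cells. Cebpa, an adipogenic factor, had H3K4me3 in differentiated cells alone and H3K36me3 (65.8% of the gene) in undifferentiated cells alone, and its region overlapped RXR, C/EBPβ and RUNX2 in both states. The gene lies within 5 kb of that region, so its lack of H3K36me3 in differentiated cells follows from the rule.

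Acetylation and H3K4me1 were nearly universal at the distant regions. H3K9ac, an acetylation of active starts, overlapped 1477 of 1482 (99.7%) and 99.9% of the near regions in differentiated cells, and 99.9% of all. H4K5ac overlapped 1452 (98.0%) against 99.8%, and 99.5% of all. H3K4me1, a mark of the flanks of starts and of enhancers, overlapped 1427 (96.3%) against 99.4%, and 98.9% of all. All 3 marks together were present at 1412 of the distant regions and none of them at 2. These joint counts were not made for the near regions, where each mark alone overlapped at least 99.4%. The odds ratios were 0.157 for H3K9ac (95% interval 0.0422 to 0.587, Fisher's exact test, adjusted p = 0.00848), 0.0774 for H4K5ac (0.0396 to 0.152, adjusted p = 1.03e-14) and 0.146 for H3K4me1 (0.0972 to 0.219, adjusted p = 6.03e-19). These small differences concern 5, 30 and 55 distant regions without the mark. That of H3K9ac was lost when only protein-coding starts were compared (99.92% of distant and 99.97% of near starts, adjusted p = 0.391 by Fisher's exact test).

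The acetylated domains differed in width. The H3K9ac region at a distant H3K4me3 region had a median width of 3309 bp, against 4042.5 bp at a near one, and the H4K5ac region 4513 bp against 5194.5 bp. The H3K4me3 regions themselves were narrower, 1908 bp (quartiles 1486.75 and 2526.75) against 2293.5 bp. This gap lay with the near regions that overlap H3K36me3, whose median was 2557 bp. Near regions that did not touch it had medians of 1817 bp (up to 1 kb away) and 1771 bp (between 1 and 5 kb). Those were no wider than the distant regions. The acetylated widths were not split by distance. The deposited score of the distant regions was also lower than that of all near regions, with a median of 235.8 against 474.6. What that score measures is not stated in any source used here.

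In undifferentiated cells acetylation was likewise listed at nearly all of the same places. H3K9ac overlapped 1476 of the 1482 (99.6%) and 99.9% of the near regions (odds ratio 0.164, adjusted p = 0.00455, Fisher's exact test), and 99.9% of all. H4K5ac overlapped 1438 (97.0%) and 99.8% (odds ratio 0.0741, adjusted p = 2.99e-21, Fisher's exact test), and 99.3% of all. H3K4me1 overlapped 1395 (94.1%) and 98.9% (odds ratio 0.170, adjusted p = 4.40e-26, Fisher's exact test), and 98.2% of all.

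**Figure D5:**
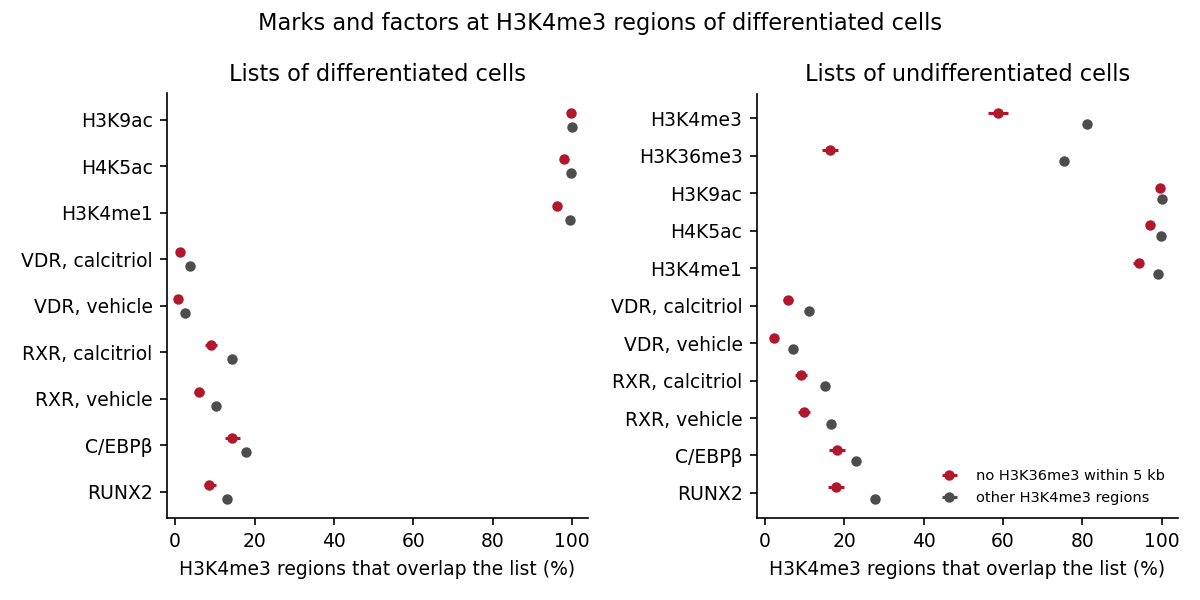
Share of the H3K4me3 regions of differentiated cells that overlap each of 20 lists by at least 1 bp (horizontal axis, %), for lists of differentiated (left) and undifferentiated cells (right). Red points are the 1482 H3K36me3-distant and grey points the 7512 H3K36me3-near regions, with exact 95% intervals that are mostly narrower than the points. Red lies left of grey in every list, with the widest gap at H3K36me3 of undifferentiated cells (16.3% and 75.2%). The rule used the same mark in differentiated cells, which partly fixes that gap.

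Transcription factor sites were less frequent at the distant regions in differentiated cells. VDR with calcitriol was found at 18 (1.21%, exact interval 0.721 to 1.91) and at 3.65% of the near regions, against 3.25% of all, with an odds ratio of 0.325 (0.201 to 0.525, adjusted p = 2.00e-07, Fisher's exact test). VDR with vehicle was found at 12 (0.810%) and 2.60%, against 2.3% of all (odds ratio 0.306, adjusted p = 5.23e-06, Fisher's exact test). RXR with calcitriol was found at 134 (9.04%) and 14.4%, against 13.5% of all (odds ratio 0.591, adjusted p = 1.85e-08, Fisher's exact test). RXR with vehicle was found at 89 (6.01%) and 10.2%, against 9.51% of all (odds ratio 0.563, adjusted p = 2.15e-07, Fisher's exact test). C/EBPβ, a leucine zipper factor, was found at 214 (14.4%) and 17.8%, against 17.2% of all (odds ratio 0.781, 0.668 to 0.913, adjusted p = 0.00197, Fisher's exact test). RUNX2, the factor that commits cells to the osteoblast lineage, was found at 128 (8.64%) and 13.2%, against 12.4% of all (odds ratio 0.622, 0.513 to 0.755, adjusted p = 7.32e-07, Fisher's exact test).

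In undifferentiated cells the shares at the same places were higher than in differentiated cells for every factor list in both groups, except RXR with calcitriol at distant regions, with no test between the states, and the distant regions were again the lower. VDR with calcitriol was found at 84 (5.67%) and 11.2%, against 10.3% of all (odds ratio 0.479, 0.380 to 0.603, adjusted p = 3.13e-11, Fisher's exact test). VDR with vehicle was found at 34 (2.29%) and 7.12%, against 6.33% of all (odds ratio 0.306, adjusted p = 3.48e-14, Fisher's exact test). RXR was found at 133 (8.97%) and 15.1% with calcitriol, against 14.1% of all, and at 145 (9.78%) and 16.5% with vehicle, against 15.4% of all (odds ratios 0.556 and 0.548, adjusted p = 2.72e-10 and 1.77e-11, Fisher's exact test). C/EBPβ was found at 267 (18.02%) and 22.96%, against 22.1% of all (odds ratio 0.737, adjusted p = 2.54e-05, Fisher's exact test). RUNX2 was found at 264 (17.8%) and 27.8%, against 26.1% of all (odds ratio 0.563, adjusted p = 7.13e-16, Fisher's exact test). No factor of any list was found at 905 of the distant regions (61.1%) and at 46.8% of the near ones.

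The size of the difference, and whether it was called, depended on which near regions and which bases were compared. Counting only sites within the 200 bp around the centre of each H3K4me3 region, which takes width out of the comparison, ended the calls of differentiated VDR with calcitriol (0.270% and 0.706%), VDR with vehicle, RXR with calcitriol and RUNX2 (odds ratios 0.381, 0.578, 0.674 and 0.761, adjusted p = 0.0879, 0.432, 0.0870 and 0.315, Fisher's exact test). Over whole regions these odds ratios were 0.325, 0.306, 0.591 and 0.622. Far fewer regions had a site within the 200 bp, so the intervals were wider (0.138 to 1.05 for VDR with calcitriol). Whether width or the smaller number of sites ended these calls was not tested. Differentiated RXR with vehicle stayed past the threshold (odds ratio 0.436, adjusted p = 0.0104, Fisher's exact test). So did undifferentiated VDR with calcitriol and vehicle (0.518 and 0.415), RXR with calcitriol and vehicle (0.581 and 0.559) and RUNX2 (0.667, adjusted p = 0.0132, Fisher's exact test). C/EBPβ then stood at 3.04% and 3.00% in differentiated cells and at 4.05% and 4.41% in undifferentiated cells. Against the 2491 near regions 1 to 5000 bp from H3K36me3, added after the data had been seen, RXR with calcitriol (9.04% and 10.0%), RXR with vehicle (6.01% and 6.74%) and RUNX2 (8.64% and 9.39%) of differentiated cells no longer passed (adjusted p = 0.397, 0.454 and 0.510, Fisher's exact test). C/EBPβ turned to 14.4% and 13.2% there (odds ratio 1.11, 0.921 to 1.34). In undifferentiated cells RXR with calcitriol and with vehicle, C/EBPβ and RUNX2 no longer passed either (adjusted p = 0.527, 0.343, 0.636 and 0.146, Fisher's exact test). VDR with calcitriol kept its direction at 1.21% and 2.77% (odds ratio 0.432, 0.256 to 0.728, adjusted p = 0.00261, Fisher's exact test). VDR with vehicle in differentiated cells (odds ratio 0.407) and VDR with calcitriol and vehicle in undifferentiated cells (0.724 and 0.413) stayed past the threshold as well (adjusted p = 0.0103, 0.0335 and 5.86e-06, Fisher's exact test). RUNX2 in differentiated cells was at 15.1% of regions that overlap H3K36me3, 10.6% up to 1 kb, 7.21% from 1 to 5 kb, 8.78% from 5 to 10 kb, 6.45% from 10 to 25 kb, 10.6% from 25 to 50 kb, 10.5% from 50 to 100 kb and 10.9% farther away. At regions without an annotated start, C/EBPβ (24.6% of 142 and 19.2% of 167) and RUNX2 (17.6% and 16.8%) were the higher in the distant group, with no call.

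Calcitriol and vehicle lists differed at the distant regions, most of all for VDR in undifferentiated cells. There 84 regions overlapped VDR with calcitriol and 34 with vehicle, 30 of them with both. In differentiated cells 18 and 12 did, and all 12 were among the 18. RXR overlapped 134 with calcitriol and 89 with vehicle in differentiated cells, and 133 and 145 in undifferentiated cells. The whole VDR lists held 871 regions with calcitriol and 274 with vehicle in differentiated cells, and 7000 and 937 in undifferentiated cells, and each is 1 list, so these counts have no replicate check.

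Neither Vdr nor Rxra, the distant genes of the vitamin D list, was among the 18 distant regions with VDR in differentiated cells. By the number of other factors and then by width, the first 10 genes at these regions were Gm11168, Zfp148, Fam116b, 8030462N17Rik, Tbpl1, Kdm1a, Etv5, 1810030N24Rik, Scaf4 and Zfp787. Kdm1a encodes the LSD1 histone demethylase, and its region (chr4:136157066-136159325) also overlapped RXR with calcitriol. Its H3K36me3 began at 7289 bp in differentiated and 1233 bp in undifferentiated cells. Etv5 encodes an ETS-family factor, and Tbpl1 a relative of the TATA-binding protein. Of the 18, 16 also overlapped VDR with calcitriol in undifferentiated cells, as did 267 of the 274 near regions with VDR, so this is not particular to the distant regions. The region at Gm11168 and Gm10722 (chr9:2999759-3006836) stood apart: it begins within the first 3000000 bases of the chromosome, which the reference gives as N, it overlapped all 6 factor lists of differentiated cells, and it overlapped none of H3K9ac, H4K5ac and H3K4me1 there. Without it, 17 distant regions overlapped VDR with calcitriol and 11 with vehicle.

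The element through which VDR and RXR bind as a dimer is a direct repeat of a 6-base half-site spaced by 3 bases (DR3). With at most 1 mismatch in 200 bp around the site's centre, on either strand, it was found in 0 of 22 VDR sites of differentiated cells in distant regions and in 13 of 283 in near regions (4.59%). In undifferentiated cells it was found in 7 of 90 sites in distant regions (7.78%) and 68 of 930 in near regions (7.31%). Distant and near shares were not tested against each other. The 22 sites are few and do not all lie in separate regions, since several lie in the region at Gm11168. Only 2 of the 7 matched without a mismatch, at Zfp697 and at Relt, which encodes a receptor of the TNF receptor family. These 2 genes were named after their matches had been seen. Their sites are shown with 8 bases to either side and the half-sites in capitals.
Zfp697, chr3:98186960-98186990, plus strand: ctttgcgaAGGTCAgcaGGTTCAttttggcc
Relt, chr7:108011285-108011315, minus strand: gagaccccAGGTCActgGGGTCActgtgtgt

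The 5 widest distant regions were of several kinds. The region of 9864 bp on chromosome 17 (chr17:86194050-86203913) and that of 7642 bp on chromosome 8 (chr8:111223102-111230743) had no annotated start within 1 kb. Both had H3K9ac, H4K5ac and H3K4me1 in differentiated cells and overlapped C/EBPβ there, and both had H3K4me3 and H3K36me3 in undifferentiated cells. The region at Gm11168 was 7078 bp wide. That at Arid1b, a subunit of the BAF chromatin remodelling complex, was 6188 bp wide and had H3K36me3 from 17234 bp in differentiated and 4653 bp in undifferentiated cells. That at Gm10748, a gene of 1 exon block, was 5747 bp wide, inside H3K9ac of 40261 bp and undifferentiated H3K4me3 of 40944 bp.

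The distant regions were spread unevenly over the chromosomes. They made up 33.5% of the H3K4me3 regions on chromosome X (90 of 269) and 31.9% on chromosome 13 (102 of 320). They made up 8.39% on chromosome 11 (64 of 763) and 8.68% on chromosome 19 (29 of 334). Without chromosome X every one of the 20 odds ratios kept its direction and its side of the threshold.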

How the data were processed

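The members and the gene lists were chosen with earlier results of these data known. Per the submitters' processing notes the authors used Bowtie and HOMER on mm9; no source used here states versions or thresholds. The deposited files list regions with a score, whose meaning is not given; the score of the deposited factor lists is 0 throughout and their regions are 201 bp wide. Rows on chromosomes Y (5) and M (2) of the H3K4me3 list were left out. All region ends lay within the NCBIM37 chromosome lengths. Starts came from the GENCODE annotation of that build, and a start within 1 kb was assigned to a region. An overlap was at least 1 bp. Members were set against the other H3K4me3 regions with two-sided Fisher's exact tests, adjusted by Benjamini-Hochberg over 20 lists, with scipy 1.17.1 and statsmodels 0.14.6 (Python 3.11.15). Odds ratios have Woolf 95% intervals and shares exact Clopper-Pearson intervals, which cover counting error only; read depth is not known. Functions were tested on simulated intervals. Genes were named by a fixed rule: up to 4 per list with the widest member, those at the 5 widest members, up to 10 with VDR, up to 8 without undifferentiated H3K4me3, and 3 on each side of the threshold. Further list genes, Relt and Zfp697 were named after their values were seen. Some items are not reported here.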

Additional observations from a re-analysis of the deposited data

Results flagged for a closer look

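Signal outside the chromosomes used was found in the H3K4me3 list of differentiated cells, which held 5 regions on chromosome Y. They were not set against H3K36me3, and no control list was used beside them.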

How the results depend on the processing

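With the distance in the rule at 1, 10 and 25 kb there were 2384, 1038 and 526 distant regions. Under 13 alternatives the odds ratios of undifferentiated H3K36me3 (0.0408 to 0.395), undifferentiated H3K4me3 (0.264 to 0.757) and differentiated H3K4me1 (0.0885 to 0.566) kept their direction and stayed past the threshold. That of differentiated H4K5ac did so in 12 of 13 and missed it among regions without a start (0.208, adjusted p = 0.525 by Fisher's exact test). That of differentiated H3K9ac missed it without the lowest 25% of scores (0.181), at protein-coding starts alone (0.359), without a start (0.418), in regions narrower than the median (0.271), at genes up to 50 kb (0.188) and against regions 1 to 5000 bp from H3K36me3 (0.237), and at genes over 50 kb a count of 0 left no odds ratio. Of the other odds ratios under alternatives, 146 were alike in direction and side of the threshold, 30 missed it and 7 turned above 1. C/EBPβ of differentiated cells turned to 1.01 around the centre, 1.38 without a start and 1.11 against regions 1 to 5000 bp away, and that of undifferentiated cells to 1.02 without a start and 1.04 against those regions. RUNX2 of differentiated cells (1.06) and H4K5ac of undifferentiated cells (1.06) turned among regions without a start. The cause was not tested. The comparison by gene length and that with regions 1 to 5000 bp away were chosen after seeing the data. Every region name gave at least 2 merged peaks, so that alternative changed nothing.

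No paired analysis was possible because each antibody, state and treatment has 1 list, and for the same reason leaving out a replicate was not possible. Read depth is unknown, so a place without a listed region is not shown to lack the mark or factor.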
